A study of Populus trichocarpa with 12 samples.

Results

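Chromosome 19 is the sex chromosome of poplars, and the H3K9ac regions on it were chosen as the rows of the authors' 2 tables of changed regions whose chromosome was 19. It held 256 of the 10605 regions listed for day 5 against day 0 and 298 of the 12101 listed for day 7 against day 0. The other 18 chromosomes held 10324 and 11777 regions. In poplars sex is set genetically by a small region of chromosome 19, and male and female trees otherwise carry much the same chromosome. H3K9ac is an acetyl group on lysine 9 of histone H3. It is a mark of open chromatin that lies mainly over the promoters and the start of genes that are being transcribed, where acetyltransferases place it and deacetylases remove it. Stem differentiating xylem is the layer of newly formed cells that is turning into wood.

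The study used chromatin immunoprecipitation with sequencing (ChIP-seq) on stem differentiating xylem of greenhouse-grown Populus trichocarpa, 3 months old, to ask where H3K9ac changes when water is withheld. The groups were mild drought (day 5 without water, soil water content 33% and xylem water content 75.3%), severe drought (day 7, 29% and 74.3%) and fully watered plants (day 0, 74% and 80.6%), with 2 H3K9ac and 2 input libraries each, 12 in all. The labels gave neither the sex of the plants nor a gene annotation of the coordinates, and they named no genome build, so the sex-determining region was not located and regions are given by position only, as the authors' tables have them. No watered plants were sampled at days 5 and 7, so drought and time cannot be told apart, and whether the replicates of a day were separate plants is not stated in the labels.

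Each region carried a normalised read count in each of 4 H3K9ac libraries, and its change is the log2 of the mean at day 5 or day 7 over the mean at day 0. Regions were called where the authors' deposited table gave an adjusted p under 0.05, gained where the drought mean was higher and lost where it was lower. On chromosome 19 the listed regions held 97311 to 141282 reads in a library, with a median of 259 to 415 reads per region. The median replicate ratio in those regions was 1.05 to 1.07, and the day 5 and day 7 tables share the day 0 libraries.

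At day 5, 238 regions of chromosome 19 were called, 121 gained and 117 lost. That was 93.0% of those listed, against 91.5% over the whole table (43.3% gained and 48.2% lost). At day 7, 268 regions were called, 150 gained and 118 lost, 89.9% of those listed, against 89.1% over the whole table (44.1% gained and 45% lost). A limma fit on the log2 normalised reads, with Benjamini-Hochberg adjustment over each whole table, called 108 gained and 102 lost at day 5, 82.0% of the listed regions, against 83.8% over the whole table (39.5% gained and 44.3% lost). It called 139 gained and 105 lost at day 7, 81.9%, against 83.4% over the whole table (41.4% gained and 42% lost). The tables list only regions that had already differed between these libraries, so these shares sit near the background by construction and the limma calls are no independent evidence. With 2 libraries against 2, exact permutation for any single region could not give a two-sided p below 0.333.

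The changes were mostly modest. The median log2 change was 0.42 in gained and -0.44 in lost regions at day 5, and 0.39 and -0.41 at day 7, inside the range of the other 18 chromosomes for each. An absolute log2 change of at least 0.5 was reached by 92 of the 256 listed regions at day 5, where 34.4% of the whole table reached it, and by 84 of 298 at day 7, where 30.5% did. An absolute log2 change of at least 1 was reached by 3 called regions at day 5 and 4 at day 7, where 1.61% and 1.52% of all listed regions reached it. Both drought libraries lay on one side of both day 0 libraries in 248 of the 256 at day 5 (96.9%, as over the whole table). The same held in 290 of 298 at day 7 (97.3%, against 97.2%). The calls stopped at chr19:421901-423100, with an adjusted p of 0.0398 in the authors' deposited table at day 5, and chr19:10288601-10289700 fell outside at 0.06. At day 7 the last inside was chr19:15723601-15724800 at 0.0486 and the first outside chr19:1664701-1666100 at 0.149, again in the authors' deposited table.

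Chromosome 19 carried the thinnest cover of called regions of the 19 chromosomes on both days. Over its 15.8 Mb up to the last listed region there were 15.02 called regions per Mb at day 5, against 17.1 to 37.3 on the other 18 chromosomes (median 23.5). At day 7 there were 16.9 per Mb, against 20.2 to 42.2 (median 25.4). Measured as length, called regions covered 23.0 kb per Mb at day 5 and 25.1 kb per Mb at day 7, both below the lowest other chromosome (26.9 and 30.3 kb per Mb). The tables hold no regions that did not change, so how much H3K9ac or how many genes chromosome 19 carries per Mb cannot be read from them, and neither was set against this count.

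Over all called regions, the balance of gain and loss leaned to gain at day 7. Of the called regions 56.0% were gained (exact binomial 95% interval 49.8 to 62.0%, counting error only), the highest share of the 19 chromosomes, where the other 18 ran from 38.4 to 53.9% with a median of 49.7%. At day 5 the share was 50.8% (44.3 to 57.4%), rank 14 from the lowest, with the other 18 between 40.3 and 53.6%. The median log2 change of all listed regions on chromosome 19 exceeded that of the whole table by 0.22 at day 7, where the others lay from -0.14 to 0.19, and by 0.14 at day 5, where the others lay from -0.12 to 0.21. The day 7 split differed with the enrichment limit and between scaled and unscaled reads. Among called regions with at least 2-fold enrichment over input, 43.9% were gained at day 7 (61 gained and 78 lost, rank 13) by the authors' deposited enrichment of the group with more H3K9ac. That limit set gained regions against the day 0 input and lost regions against the day 7 input, so gains and losses did not face the same limit. By the enrichment recombined from both deposited columns the share gained was 52.9% (54 gained and 48 lost, rank 14). On unscaled reads 94 of the called regions were above day 0 and 174 below at day 7 (35.1% above), and 119 were above and 119 below at day 5. Unscaled reads hold no correction for depth, and the day 7 constants (0.79 and 1.0) were below those of day 0 (1.11 and 1.13). With libraries scaled by their median ratio over listed regions, 150 were above and 118 below at day 7 (56.0% above). At day 5 that scaling gave 128 above and 110 below. Unscaled reads shift the median of all listed regions by -0.32 at day 7 and -0.06 at day 5. The distance of chromosome 19 from the whole table was then 0.21 at day 7 and 0.14 at day 5. A factor per library moves all its regions alike, so this distance could hardly change and is no check on the scaling.

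**Figure D1:**
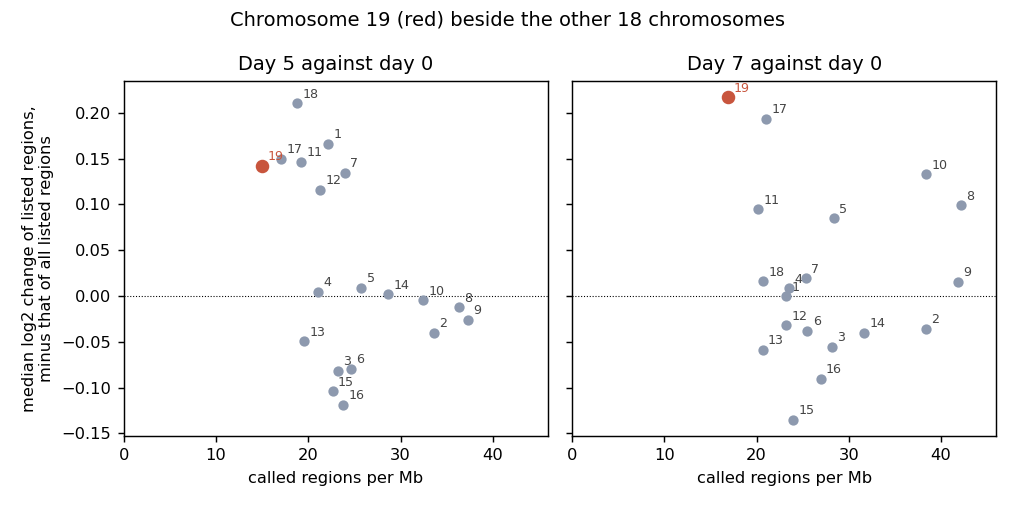
Each point is 1 of the 19 chromosomes, labelled by its number, with called H3K9ac regions per Mb across and the median log2 change of its listed regions, minus that of all listed regions, upward. Chromosome 19 (red) is the farthest left on both days, at 15.02 per Mb at day 5 and 16.9 at day 7, and at day 7 it is also the highest, at 0.22.

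The share of reads moved the same way in every library. Of all normalised reads in listed regions, chromosome 19 held 2.43 and 2.46% in the day 5 libraries, against 2.38 and 2.40% in the day 0 libraries. In the day 7 table it held 2.52 and 2.55% in the day 7 libraries, against 2.45 and 2.46% in the day 0 libraries. Both drought libraries lay above both day 0 libraries on each day, by a small margin. On both days the share includes gained regions below input with many reads. At day 5 chr19:3191401-3196400 had 5300 and 5889 normalised reads, against 3726 and 3571 at day 0, with H3K9ac over input of 0.13. At day 7 chr19:3191601-3195000 had 2463 and 2124, against 1758 and 1759 at day 0, with H3K9ac over input of 0.13. The share was not computed without such regions. Summed over called regions, the day 5 libraries had 110182 and 114128 reads, against 110864 and 111541 at day 0, so these sums overlapped.

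Along the chromosome, called regions were spread over all 16 bins of 1 Mb. A bin held 5 to 36 of them at day 5 and 7 to 34 at day 7. The medians were 14.5 and 16 per bin, against 23 and 25 over the bins of the other 18 chromosomes. The fullest bin on both days was 11 to 12 Mb, followed by 15 to 16 Mb (29 called on each day) and 9 to 10 Mb (19 at day 5 and 24 at day 7). The emptiest at day 5 were 5 to 6 Mb and 12 to 13 Mb, with 5 each, and 6 to 7 Mb, with 6. At day 7 the emptiest were 5 to 6 Mb and 6 to 7 Mb, with 7 each, and 7 to 8 Mb, with 9. The bin from 12 to 13 Mb, nearly empty at day 5, held 18 called regions at day 7.

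Long stretches held no called region. From chr19:497000 to chr19:1210701 there was none for 714 kb at day 5, and the matching gap at day 7 was 713 kb. The widest gap at day 5 ran for 729 kb from chr19:12260300, and the widest at day 7 ran for 985 kb from chr19:5547100. Called regions reached close to both ends of the listed span, the first starting at 150001 at day 5 and 149701 at day 7, and the last ending at 15844200 and 15844400.

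**Figure D2:**
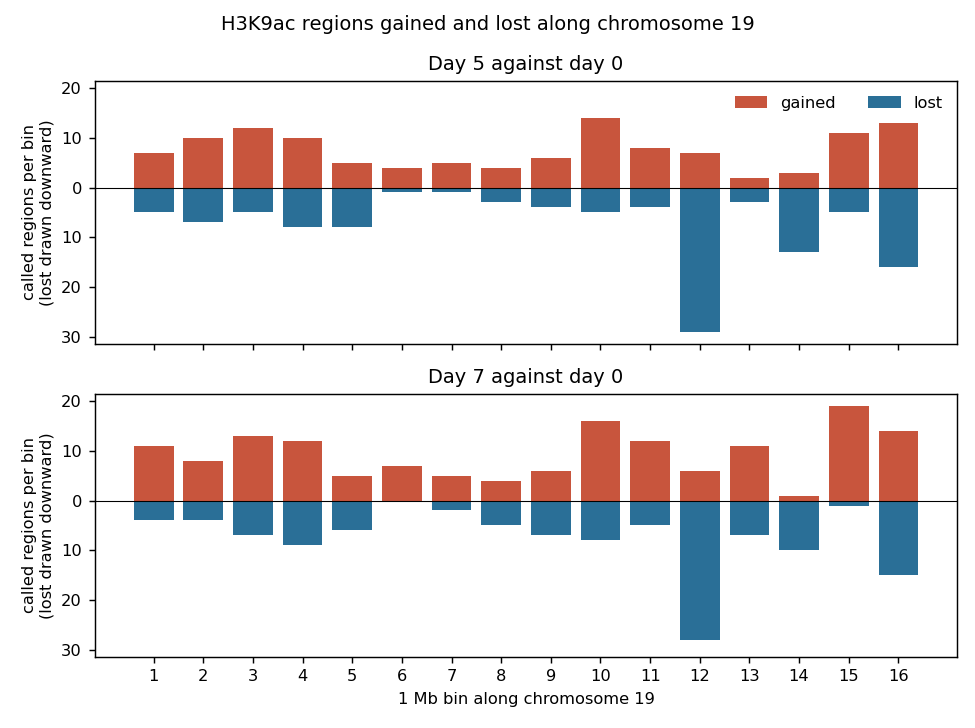
Bars give the called H3K9ac regions in each 1 Mb bin of chromosome 19, gained regions upward in red and lost regions downward in blue, for day 5 (top) and day 7 (bottom). Bin 12 (11 to 12 Mb) has the deepest loss on both days, with 29 and 28 lost regions, and bin 15 (14 to 15 Mb) is nearly all gain at day 7, with 19 gained and 1 lost.

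Loss was most frequent in 2 bins, 11 to 12 Mb and 13 to 14 Mb. In the bin from 11 to 12 Mb, 29 of 36 called regions were lost at day 5 (80.6%) and 28 of 34 at day 7 (82.4%). This bin alone held 24.8% of the chromosome's lost regions at day 5 and 23.7% at day 7. Summed over its called regions, the day 5 libraries had 15341 and 15390 normalised reads, against 20337 and 20226 in the day 0 libraries. The day 7 libraries had 14188 and 13267, against 18220 and 18029 in the day 0 libraries. Both sums were lower under drought by 0.40 on the log2 scale, with no overlap between libraries. In the bin from 13 to 14 Mb, 13 of 16 called regions were lost at day 5 and 10 of 11 at day 7, the lowest shares gained on the chromosome (18.8% and 9.09%).

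Bins tilted this far toward loss were uncommon elsewhere. Among bins with at least 10 called regions, at least 75% were lost in 2 of 12 on chromosome 19 at day 5, against 19 of 313 on the other 18 chromosomes (6.07%). At day 7 it was 2 of 13, against 8 of 319 (2.51%). With 2 such bins on each day, no test was made of this difference. The bin between the 2 on chromosome 19, 12 to 13 Mb, had 2 gained and 3 lost at day 5. At day 7 it leaned to gain, with 11 gained and 7 lost. From 10.5 to 13.5 Mb loss was also the more frequent where the bins began elsewhere. In bins shifted by 0.5 Mb, 18 of 25 regions were lost from 10.5 to 11.5 Mb and 15 of 20 from 11.5 to 12.5 Mb at day 5. At day 7 it was 17 of 25 (68.0%) and 19 of 28 (67.9%), and from 12.5 to 13.5 Mb 69.2% were lost. These day 7 shares fall short of the 75% used above. The shifted bins were not set against the other 18 chromosomes.

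In 2 other bins, each leading on a single day, gain was most frequent among bins with at least 10 called regions. From 14 to 15 Mb, 19 of 20 called regions were gained at day 7 (95%), the highest share among the 332 bins of the genome with at least 10 called regions. At day 5, 11 of 16 were gained there (68.8%, against 70.6% from 2 to 3 Mb). Library sums over those called regions were 7502 and 8134 normalised reads in the day 7 libraries, against 5908 and 6075 in the day 0 libraries. They were 6257 and 6682 in the day 5 libraries, against 5607 and 5593 in the day 0 libraries. All drought sums lay above all day 0 sums. From 9 to 10 Mb, 14 of 19 were gained at day 5, the highest share that day (73.7%). At day 7, 16 of 24 were gained there (66.7%), below the 73.3% from 0 to 1 Mb and the 70.6% from 10 to 11 Mb.

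The bins before 10 Mb held no comparable tilt toward loss. From 1 to 2 Mb, 10 called regions were gained and 7 lost at day 5, and 8 were gained and 4 lost at day 7. From 2 to 3 Mb, 12 were gained and 5 lost at day 5, and 13 were gained and 7 lost at day 7. From 3 to 4 Mb, 10 were gained and 8 lost at day 5, and 12 were gained and 9 lost at day 7. From 4 to 5 Mb loss was the more frequent, with 5 gained and 8 lost at day 5, and 5 gained and 6 lost at day 7. The sparse bin from 5 to 6 Mb had 4 gained and 1 lost at day 5, and 7 gained and none lost at day 7. From 10 to 11 Mb, next to the bin with the deepest loss, gain was the more frequent, with 8 gained and 4 lost at day 5, and 12 gained and 5 lost at day 7.

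The end bins differed from each other. In the first bin, 0 to 1 Mb, 7 regions were gained and 5 lost at day 5, and 11 were gained and 4 lost at day 7. In the last, 15 to 16 Mb, which the listed regions do not fill, 13 were gained and 16 lost at day 5, and 14 were gained and 15 lost at day 7. The last bin thus held more called regions than the first on both days (29, against 12 at day 5 and 15 at day 7), with gain and loss near balance.

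The single largest change on the chromosome was a loss. The region chr19:11045401-11047900 had 393 and 443 normalised reads at day 5, against 1219 and 1337 at day 0, and 437 and 379 at day 7, against 1119 and 1224 at day 0. It was lower by 3.06-fold at day 5 (log2 change -1.61 ± 0.09 SE, limma adjusted p = 0.00029) and by 2.87-fold at day 7 (-1.52 ± 0.09 SE, limma adjusted p = 7.7e-07). No overlap occurred between groups, and no called region of the other 18 chromosomes reached so low a change on either day, their lowest being -1.47 at day 5 and -1.41 at day 7. Its H3K9ac over input, taken over both groups, was 2.66 at day 5 and 2.94 at day 7.

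Another strong loss lay in the bin from 13 to 14 Mb. The region chr19:13103801-13107000 had 608 and 591 normalised reads at day 5, against 1235 and 1220 at day 0 (log2 change -1.03). The slightly shorter chr19:13103801-13106800 had 480 and 431 at day 7, against 1105 and 1091 at day 0 (-1.27). Its neighbour chr19:13094201-13097200 was also lost, at -0.75 at day 5, and chr19:13094301-13097400 at -0.79 at day 7. All 10 of the lowest changes at day 5 lay between -1.61 and -0.73, and 4 of them were in the 11 to 12 Mb bin. At day 7 the 10 lowest lay between -1.52 and -0.77, with 2 in that bin. In the 20 regions the drought libraries lay below both day 0 libraries throughout.

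The first bin held the next strongest loss at day 5. The region chr19:258401-261100 had 598 and 524 normalised reads at day 5, against 1076 and 1140 at day 0 (-0.98), and chr19:258601-261100 had 618 and 492 at day 7, against 966 and 1028 at day 0 (-0.84). Gains and losses stood close together in that bin, where chr19:402101-403700 was gained at day 5 (0.61), chr19:388701-390000 at day 7 (0.67) and chr19:187901-189800 lost at day 5 (-0.60). Among other losses on both days, chr19:3779401-3781200 fell by 0.75 on the log2 scale at day 5 and chr19:3779301-3781200 by 0.80 at day 7. In the last bin chr19:15327601-15329800 fell by 0.73 at day 5 and chr19:15327701-15329900 by 0.90 at day 7.

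Other strong losses were among the 10 lowest changes of one day only. In the bin from 3 to 4 Mb, chr19:3992601-3994500 had 286 and 228 normalised reads at day 5, against 478 and 474 at day 0 (-0.89). In the bin from 11 to 12 Mb, chr19:11505001-11507600 had 643 and 718 at day 5, against 1198 and 1256 at day 0 (-0.85). At day 7, chr19:2106601-2109400 had 492 and 508, against 894 and 917 at day 0 (-0.86). The groups did not overlap in any of these.

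Some of the longest regions were losses as well. The region chr19:11389901-11394800, 4900 bp long, had 1200 and 1183 normalised reads at day 5, against 2028 and 1885 at day 0 (-0.72). The region chr19:4327701-4332300, 4600 bp long, had 886 and 856 at day 5, against 1304 and 1257 at day 0 (-0.56), and chr19:4328801-4332300 had 478 and 612 at day 7, against 921 and 902 at day 0 (-0.74). Its replicates lay closer together at day 0 than at day 7. The region chr19:9046301-9050000 was lost at day 5 and chr19:9046101-9050000 at day 7, at -0.71 and -0.72. The longest called region at day 7, chr19:13179601-13184000, 4400 bp long, was gained, with 1318 and 1364 at day 7, against 821 and 857 at day 0 (0.68), the only gain in the 13 to 14 Mb bin that day.

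The largest gain shared by both days was smaller than the 2 largest shared losses. The region chr19:3541001-3544000 had 1209 and 1372 normalised reads at day 5, against 610 and 774 at day 0, and chr19:3540901-3543900 had 1133 and 1225 at day 7, against 558 and 702 at day 0. The log2 change was 0.90 on each day. In the last bin, chr19:15161401-15165100 had 1837 and 1969 at day 5, against 939 and 1001 at day 0 (0.97), and chr19:15161401-15164700 had 1464 and 1486 at day 7, against 812 and 871 at day 0 (0.81). The groups did not overlap in either region. The regions chr19:15737701-15739700 (0.83 at day 5) with chr19:15737701-15739900 (0.99 at day 7) and chr19:12160301-12162800 (0.83) with chr19:12160401-12162600 (0.73) were gained on both days too.

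**Figure D3:**
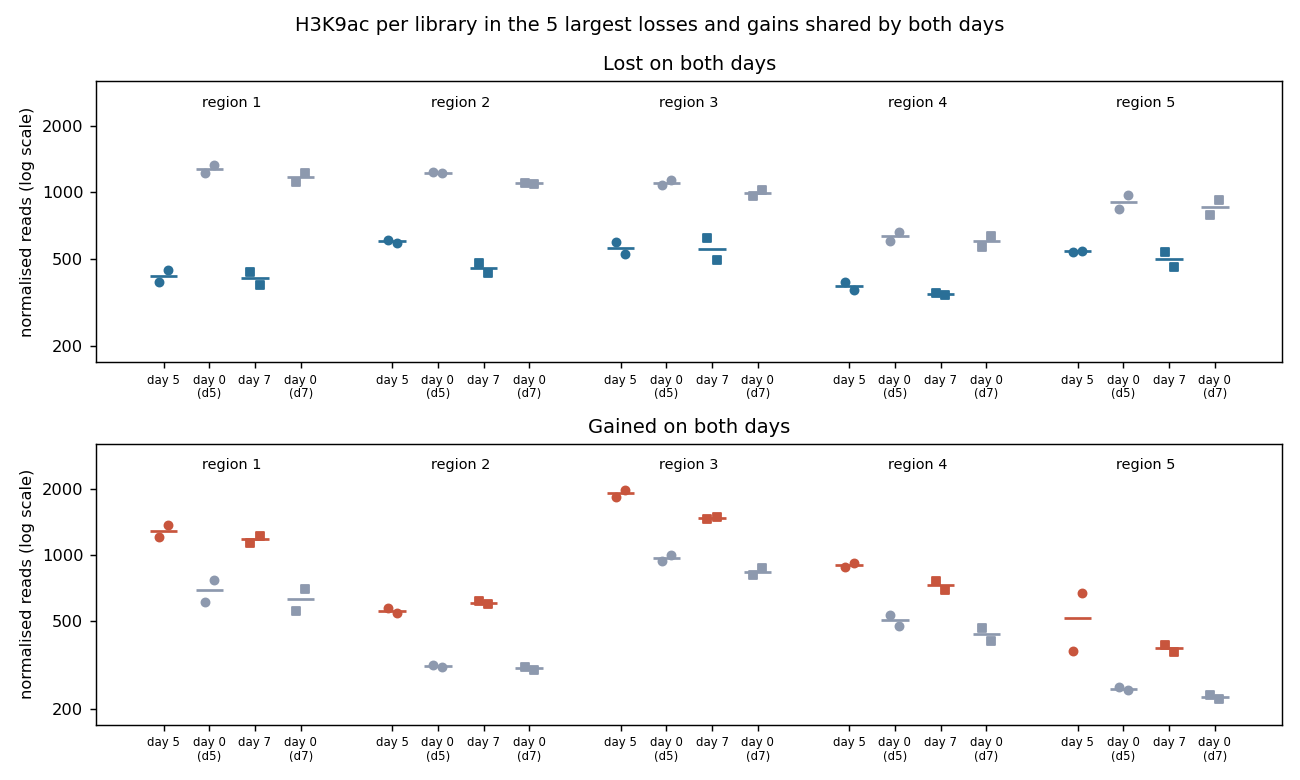
Normalised reads (log axis) in each library for the 5 largest losses (top, blue) and gains (bottom, red) shared by both days, in the order chr19:11045401, 13103801, 258401, 3779401 and 13094201 for losses and 3541001, 15737701, 15161401, 12160301 and 5545401 for gains, by start at day 5. Points are libraries (circles from the day 5 table, squares from the day 7 table), lines are means, and grey is day 0; drought and day 0 points do not overlap in any of them, and the day 5 replicates of the last gain stand far apart, at 368 and 671.

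The highest gain at day 7 was chr19:355001-356000 in the first bin, with 251 and 218 normalised reads at day 7, against 125 and 93.7 at day 0 (log2 change 1.10). It was followed by chr19:14583501-14584800, with 256 and 317 at day 7, against 160 and 121 at day 0 (1.02). Both sets of libraries were apart, at low counts. The highest gain at day 5, chr19:5545401-5547100, rests on uneven replicates, with 368 and 671 at day 5, against 251 and 243 at day 0 (1.07 ± 0.24 SE). Its day 7 libraries had 392 and 362, against 231 and 223 at day 0 (0.73). Further gains at day 7 included chr19:2151101-2153600, with 603 and 752 normalised reads at day 7, against 369 and 369 at day 0 (0.88), and chr19:3613501-3616600, with 1124 and 977, against 535 and 638 at day 0 (0.84). At day 5, chr19:2158201-2160400 had 564 and 587, against 336 and 357 at day 0 (0.73). The groups were apart in all of them. The other regions with replicates more than 1.5-fold apart were chr19:14684401-14685400 at day 5 and chr19:302101-303100, chr19:12127401-12128400 and chr19:15204101-15205200 at day 7.

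Called regions with the least H3K9ac over input, under 0.5, were nearly all gains. H3K9ac over input was the authors' deposited fold enrichment, recombined so that both groups were set against the inputs of both days. It was under 0.5 in 9 called regions at day 5, of which 8 were gained, and in 7 at day 7, all gained. Over all called regions 156 of 159 were gained in this class at day 5 and 112 of 113 at day 7, so chromosome 19 is no exception. Between 0.5 and 1, still below input, loss was the more frequent at day 5, with 1 gained and 6 lost on chromosome 19 (14.3% gained, against 16.2% over all called regions). At day 7 that range held 1 gained and 1 lost. The class under 0.5 included the highest gain at day 5 (0.15) and a group from 3187501 to 3205200. There the longest region of the chromosome, chr19:3191401-3196400, 5000 bp, had 5300 and 5889 normalised reads at day 5, against 3726 and 3571 at day 0 (0.62), with H3K9ac over input of 0.13. The part that the input signal plays in these gains was not tested.

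Away from that class, the tilt changed with enrichment at day 5. Of called regions with H3K9ac over input between 1 and 1.5, 14 of 52 were gained (26.9%, against 24.0% over all called regions). Above 3, 28 of 38 were gained (73.7%, against 74.3%). At day 7 the share was 54.5% between 1 and 1.5, against 45.8% over all called regions, and 84.2% above 3, 16 of 19, against 54.3%. The median over called regions was 2.00 at day 5, the highest of the 19 chromosomes, where the others ran from 1.54 to 1.97. At day 7 it was 1.74, rank 8. The median input change over all listed regions was removed first, which hides any change common to them. The input level on chromosome 19 then had a median log2 change of 0.01 on both days. It moved by at least 0.5 in 36 called regions at day 5 (15.1%) and 17 at day 7 (6.34%), inside the range of the other chromosomes.

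**Figure D4:**
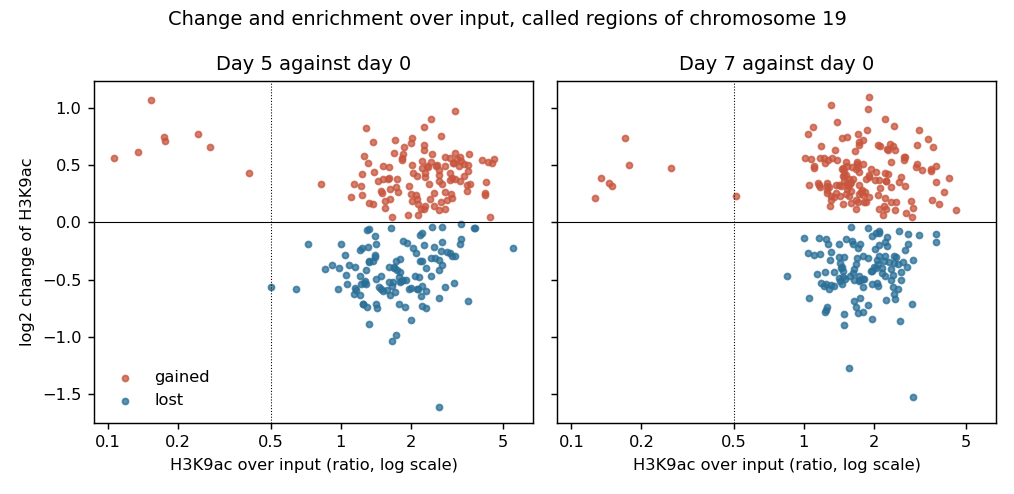
Each point is a called region of chromosome 19, with H3K9ac over input across (log axis) and its log2 change upward, gained in red and lost in blue. Left of the dotted line at 0.5 lie 9 regions at day 5, 8 of them gained, and 7 at day 7, all gained.

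Neighbouring regions tended to move together. Of pairs of called neighbours at most 20 kb apart, both members moved the same way in 71 of 98 at day 5 (72.4%, rank 17 from the lowest of 19) and in 91 of 127 at day 7 (71.7%). On the other 18 chromosomes the share was 57.6 to 76.6% at day 5. At day 7 it was 55.4 to 66.6% there, below that of chromosome 19. Runs of such neighbours were picked after their values were seen and are described without a test.

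The longest run was a gain. From chr19:14501401-14602400, over 101 kb, all 14 called regions were gained at day 7, with a median log2 change of 0.50 and a range of 0.16 to 1.02. Both day 7 libraries lay above both day 0 libraries in all 14. Their summed normalised reads were 4958 and 5369 at day 7, against 3570 and 3744 at day 0. In the same stretch 7 of 8 called regions were gained at day 5, with sums over all 8 of 3392 and 3606 at day 5, against 2667 and 2753 at day 0. The input change there had a median of -0.22 at day 5, lowest -0.67, and 0.09 at day 7. Its part in these values was not tested. No other chromosome had a run above 11 at day 7. That order holds at a limit of 20 kb, but with neighbours at most 5 kb apart the longest run was 6 here and 7 elsewhere, and at 50 kb it was 14 here and 16 elsewhere. A run also depends on how regions were divided. In this one, chr19:14513501-14515300 and chr19:14515401-14516700 at day 7 both overlap a single day 5 region, chr19:14513601-14516400.

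Runs of loss recurred on both days in 3 stretches. From chr19:11327401-11394800, over 67.4 kb inside the 11 to 12 Mb bin, all 8 called regions were lost at day 5 (median log2 change -0.58) and all 8 at day 7 (-0.47). Their sums were 4515 and 4591 normalised reads at day 5, against 6853 and 6549 at day 0, and 3772 and 3632 at day 7, against 5321 and 5157 at day 0. In all of them both drought libraries were below both day 0 libraries. The median input change over this stretch was 0.26 at day 5, highest 0.87, and -0.04 at day 7, and its part in the day 5 values was not tested. The summed reads of the stretch fell by 0.56 on the log2 scale at day 5 and by 0.50 at day 7. From chr19:15546601-15608600, over 62.0 kb, 4 called regions were lost at day 5 (median -0.59) and 7 at day 7 (-0.45). The runs with the deepest medians were shorter, 4 regions lost from chr19:13078301-13111700 at day 5 (-0.64) and 4 from chr19:13094301-13126600 at day 7 (-0.67), and both include the strong loss that starts at 13103801.

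**Figure D5:**
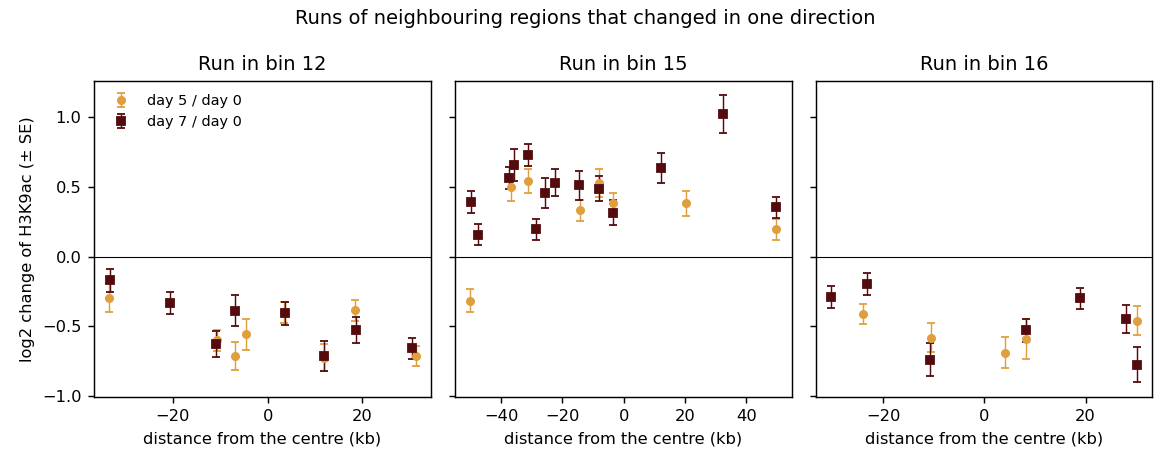
Log2 change of H3K9ac (± limma SE) in the listed regions of the 3 stretches that held a run of at least 7 regions, against the distance of each region from the centre of its run, for day 5 (circles) and day 7 (squares) over day 0. The runs in bins 12 and 16 are below 0 throughout, and the run in bin 15 is above 0 in 7 of 8 regions at day 5 and in all 14 at day 7.

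Calls of the 2 days overlapped in part. Of the called regions, 139 of 238 at day 5 (58.4%) and 140 of 268 at day 7 (52.2%) overlapped a call of the other day by at least 1 bp, against medians of 58.5% and 53.0% on the other 18 chromosomes. These formed 142 pairs, 67 gained on both days, 65 lost on both and 10 opposite (7.04%, with 5.10 to 12.6% elsewhere). In the 11 to 12 Mb bin 19 of 22 pairs were lost on both days. Both comparisons share the day 0 libraries, so the overlap is given as a description.

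Day 7 could be set against day 5 directly only in the 20 regions of chromosome 19 whose coordinates were identical in both tables, of 590 in the genome. In these the limma fit called no difference between day 7 and day 5 after adjustment over the 590 regions (0 of 20, smallest adjusted p = 0.486; 2 at an unadjusted p under 0.05). Over the genome it also called 0 of 590 (0%), with 58 at an unadjusted p under 0.05 (9.83%). The log2 differences of day 7 over day 5 ran from -0.27 to 0.21 on chromosome 19, with a median SE of 0.09. Without day 5 replicate 1 there was 1 call on chromosome 19. A regional difference between severe and mild drought was thus not detectable with these libraries in these 20 regions. They were listed with the same boundaries on both days, a choice that may favour regions that changed alike. The result therefore does not stand for the other regions of the chromosome.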

How the data were processed

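The 6 H3K9ac and 6 input libraries were sequenced on an Illumina HiSeq 2000, per the labels' protocols, and Bowtie is named in the submitters' processing notes. No source used here gives the aligner's version or the genome build. The authors, per the file headers, ran diffReps 1.55.4 on each drought day against day 0, moving windows of 1000 bp by 100 bp, keeping windows with p under 0.0001 in a negative binomial test and merging them into regions. The values per library are deposited as normalised read counts (reads divided by a constant per library), so no count test was run on them. The deposited tables also give the mean signal per group, the fold enrichment (a ratio over input), a log2 fold change, and a p-value adjusted over 59188 tests at day 5 and 57991 at day 7. Per the file headers the input background of each group was the other day's, so enrichment was recomputed as the geometric mean of both columns.

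Change was log2 of the mean normalised reads at day 5 or day 7 over day 0. limma 3.58.1 (R 4.3.3, trended prior, no pseudocount) was fitted over every listed region of a table, after a check on simulated data. Day 7 against day 5 was fitted on the 590 regions with identical coordinates, where day 0 reads were the same in 590. Regions were placed in 1 Mb bins by their centre. Intervals are exact binomial. The headers' constants and the values gave whole reads within 0.1 for 100% of regions, which supplied the depths. The members, the lists and the runs were chosen with earlier results of these data known. Named regions are the 10 highest and 10 lowest per day, the 5 gained and 5 lost most on both days, the 5 longest, those opposite on the 2 days, those with uneven replicates, and the 3 largest in each end bin. Gene names were not assigned, since the annotation table at hand was of another build.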

Additional observations from a re-analysis of the deposited data

Results flagged for a closer look

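In 6 pairs of overlapping regions on chromosome 19, both day 5 libraries moved one way from both day 0 libraries and both day 7 libraries the other way. The difference was not tested, because the paired regions do not have identical coordinates. The largest was at the start of the long run of gains: chr19:14501301-14502300 had 211 and 214 normalised reads at day 5, against 263 and 265 at day 0, while chr19:14501401-14502500 had 307 and 293 at day 7, against 219 and 238 at day 0. The log2 change was higher at day 7 than at day 5 by 0.71. In 4 pairs the region was above day 0 at day 5 and below it at day 7, with log2 differences of day 7 minus day 5 of -0.46 for chr19:8411901-8413400 and chr19:8412601-8413600, -0.28 for chr19:15196601-15197600 and chr19:15196101-15198100, -0.21 for chr19:7440501-7441500 and chr19:7439801-7440800, and -0.19 for chr19:1749201-1750200 and chr19:1749301-1750300. The second of these is not uniform at day 5, where chr19:15196101-15197200 and chr19:15197101-15198200 overlap the gained region and were lost (log2 changes of -0.21 and -0.11), as was the day 7 region (-0.21), and the gain itself was 0.07 (limma adjusted p = 0.34). In the remaining pair, chr19:10085001-10086000 and chr19:10084501-10085500, the difference was 0.17.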

How the results depend on the processing

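Unscaled reads moved the results most: limma then called 0 gained and 1 lost at day 5 and 8 gained at day 7. Its day 7 losses are not counted here, so these are not all its calls. Of the authors' day 7 calls, 94 then lay above day 0 and 174 below (35.1% above). Such reads hold no correction for depth. Scaling by the median ratio over listed regions left these day 7 calls at 150 above and 118 below. Of 69 named values, 38 lost their limma call on unscaled reads and 1 reversed, chr19:15196601-15197600 at day 5, at a log2 change of -0.0142. With the deposited enrichment of the group with more H3K9ac at 2 or more, calls were 76 gained and 67 lost at day 5, and 61 and 78 at day 7, where the share gained was 43.9% (rank 13). This limit sets gains and losses against the inputs of different days. With the recombined enrichment, chosen after seeing the data, they were 75 and 44 at day 5 (63.0% gained, rank 6), and 54 and 48 at day 7 (52.9%, rank 14). With an absolute log2 change of at least 0.5 they were 43 and 49 at day 5 (rank 10 by share gained) and 47 and 37 at day 7. The cause was not tested; the enrichment and size limits use fewer regions. With bins shifted by 0.5 Mb the fullest bin became 14.5 to 15.5 Mb, with 40.7% lost at day 5 and 23.3% at day 7, and with 2 Mb bins the fullest at day 7, 10 to 12 Mb, had 64.7% lost. The longest run fell to 3 at day 5 and 6 at day 7 with neighbours at most 5 kb apart, a setting chosen after seeing the data. Leaving out each library in turn gave 74 to 105 gained and 73 to 100 lost at day 5, 118 to 139 and 87 to 105 at day 7, and 0 to 1 calls of day 7 against day 5. The low count of called regions per Mb kept its rank of 1 when length was counted in bins or called regions were measured in kb.

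With the replicate number as a block, limma called 105 gained and 102 lost at day 5 and 140 gained and 106 lost at day 7, and 0 of day 7 against day 5. Deviations of libraries with the same number had a correlation of 0.11 at day 5 and 0.09 at day 7, so the numbers were not shown to pair the libraries. Depth of 259 to 415 reads per region in the median limits small changes in short regions.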
